A study of Mus musculus with 8 samples.

Results

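The RNA of 10 genes was followed in mouse oocytes: the cytoplasmic poly(A)-binding proteins *Pabpc1*, *Pabpc1l* and *Pabpc4*, the nuclear-type poly(A)-binding proteins *Pabpn1* and *Pabpn1l*, the regulators *Paip1* and *Paip2*, and the deadenylase genes *Pan2*, *Pan3* and *Parn*. They were chosen by symbol as the proteins that coat the poly(A) tail, the factors that control them, and the deadenylases PAN2-PAN3 and PARN. All 10 were among the 15962 genes listed for every library, and 9 were among the 13968 genes tested. The remaining gene, *Pabpn1*, was below 1 TPM (a share of the library, corrected for transcript length) in every library.

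The 4 groups of oocytes had 2 Smart-seq2 libraries each. GV oocytes, arrested at the germinal vesicle stage, and MII oocytes, arrested at metaphase II after maturation, came from in vitro culture and were not injected. Btg4wt and Btg4tm oocytes were MII oocytes injected with RNA for Myc-tagged BTG4, either wild-type or a mutant in which 3 neighbouring phosphorylated residues were replaced by alanine. The methods name female mice of the outbred Crl:CD1 (ICR) stock, 6 weeks of age. The oocytes' own *Btg4* gene was not removed in the injected groups. The paper reports that injected BTG4 of either form seemed to lower the endogenous protein. Each library was made from 15 oocytes, the labels do not say whether replicates came from separate animals, and p-values therefore measure the spread between these libraries. The extraction protocol mentions 3 samples per group. The libraries given number 2 per group, and all of them were analysed here.

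In the cytoplasm, poly(A)-binding proteins coat the tail of an mRNA and join it to the translation factor eIF4G at the cap. PABPC1 is the widespread somatic form and PABPC4 a second somatic form, whereas PABPC1L, also called ePAB, is the form of oocytes and early embryos. PABPN1 binds growing tails in the nucleus. PABPN1L is its relative in oocytes and a partner of BTG4, the adaptor that brings the CCR4-NOT deadenylase to maternal mRNAs. PAIP1 binds cytoplasmic poly(A)-binding proteins and promotes translation, and PAIP2 binds them and displaces them from the tail. PAN2 is an exonuclease that PAN3 brings to coated tails, and PARN is a deadenylase that also recognises the cap.

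Reverse transcription started from an oligo(dT) primer, so each value depends on the tail of a transcript as well as on its number. With bulk libraries, fewer oocytes that hold an RNA and less RNA per oocyte cannot be told apart. TPM do not keep the sequencing depth, which is unknown. TPM were scaled between libraries by the median of ratios (factors 0.948 to 1.11) and are called scaled TPM. The tests were made by limma on log2(scaled TPM + 1), a scale that understates changes of low genes, and all adjusted p-values below are Benjamini-Hochberg values over the 13968 genes. Folds were taken from these log2 fold changes, so they can differ from the ratio of the means printed beside them. Calls needed both an adjusted p under 0.05 and a log2 fold change beyond 1 in either direction. All 8 oocyte markers checked were above 1 TPM in every library, while 4 to 5 of 11 cumulus and granulosa cell markers were listed per library, with 25.1 to 33.1 TPM in sum. Of these markers *Inha* (0 to 9.83 scaled TPM) was called lower in MII than in GV and higher in Btg4tm than in Btg4wt oocytes. The other 3 tested markers were not called. *Kitl* had log2 fold changes of the opposite sign, 0.95 (limma adjusted p = 0.0031) and -0.76 (adjusted p = 0.012), *Cyp19a1* had 0.63 (adjusted p = 0.0039) and -0.23 (adjusted p = 0.20), and *Star* -0.12 and 0.34 (adjusted p = 0.67 and 0.26). The part of these markers in the results was not tested. Mitochondrially encoded genes took 0.625 to 0.651% of the listed TPM in GV, 2.60 to 2.71% in MII, 1.75 to 2.05% in Btg4wt and 0.765 to 1.02% in Btg4tm libraries. Scaling to those genes instead moved the median log2 fold change of all genes from -0.00 to -1.74 between GV and MII, and from 0.01 to 0.88 between Btg4wt and Btg4tm, so directions that turn under it are named beside each gene.

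The annotated 3' ends are shown first, because the tail that these proteins bind and shorten begins there. The last 150 bases of the longest coding transcript of each gene were searched on the sense strand, in GENCODE M21 on GRCm38, the build of the authors in an earlier annotation. The polyadenylation signal was searched as AATAAA or ATTAAA and the cytoplasmic polyadenylation element (CPE) as TTTTAT or TTTTAAT, with overlap of motifs allowed. Of 11086 tested genes with a coding transcript, 82.2% held a signal and 24.9% a CPE. Among the 10 genes, 9 held a signal and 3 a CPE, namely *Pabpc4*, *Pan2* and *Pan3*. Both oocyte forms, and also *Parn*, ended in the variant signal ATTAAA without a CPE in this stretch. The signal began 22 bases before the annotated end in *Pabpc1l*, 20 in *Pabpn1l* and 21 in *Parn*. These windows are given for the oocyte forms, for *Pabpc1*, and for *Paip1*, the gene with the largest rise, with the signal in capitals. They lie on GRCm38 at chr2:164050505-164050534 (plus strand), chr8:122619473-122619502 (minus), chr15:36595664-36595693 (minus) and chr13:119458171-119458200 (plus), in that order.
Pabpc1l: tttgctttatatATTAAAaaatgctgcaaa
Pabpn1l: agaatgtaaattATTAAActtgaatatatt
Pabpc1: aattcttgctttAATAAAaattccttaaac
Paip1: ttagaatttgaaAATAAAacttagtttgtt

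The windows of the 3 genes with a CPE carry the last CPE match of the stretch in capitals. They lie at chr4:123298832-123298861, chr10:128321324-128321353 and chr5:147548460-147548489, all on the plus strand. This match began 82 bases before the annotated end in *Pabpc4*, 18 in *Pan2* and 26 in *Pan3*. *Pan2* held 3 matches, and the last lay after its signal, which began 29 bases before the end. In *Pan3* the match overlapped an AATAAA. A match describes the letters of the reference and does not show that an element is used.
Pabpc4: atttgatgccagTTTTATgttacaatcttg
Pan2: aaataaaagtatTTTTATctcattagaaaa
Pan3: atagcagtattTTTTAATaaagaattgcag

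Between GV and MII oocytes the genes moved in opposite directions. *Paip1* and *Pan3* rose, *Paip2* and the oocyte form *Pabpc1l* fell, and 5 genes were not called. Of all genes tested, 12.5% were called higher and 24% lower in MII, 36.5% in either direction. Of the 9 genes, 7 had groups that did not overlap, against 82.7% of all genes. Without the fold threshold, 3 of the 9 were higher and 2 lower, against 29.8% and 32.8% of all genes. Their median log2 fold change was 0.15, beside -0.00 for all genes.

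Between Btg4wt and Btg4tm oocytes *Pabpc1l* and *Paip2* were higher and *Pan2* was lower with the mutant, and 6 genes were not called. The background in this comparison was 18.1% of genes higher and 7.94% lower, 26.1% in either direction. Groups did not overlap for 6 of the 9, against 74.3% of all genes. At any fold, 2 of the 9 were higher and 4 lower, against 26.2% and 23.3% of all genes. Their median was -0.08, beside 0.01 for all genes.

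No gene was called between MII and Btg4wt oocytes, 0% in either direction and also at any fold by limma, although 1655 of the 13968 genes, 2 of the 9 among them, had an unadjusted p under 0.05. Those 2 were *Pabpc1l* and *Pabpc4*. Groups did not overlap for 5 of the 9, against 44.9% of all genes. Between GV and Btg4tm oocytes *Paip1* and *Pan3* were higher in Btg4tm and no gene of the 9 was lower, where 1.02% of all genes were called in each direction and 2.04% in either. At any fold the shares of all genes were 7.66% higher and 3.73% lower. Groups did not overlap for 6 of the 9, against 59.5% of all genes. GV and Btg4tm oocytes differ at once in stage, injection and mutant BTG4, so these cannot be told apart in this comparison. In Btg4wt against MII oocytes the injection and the added BTG4 coincide. Each comparison shares a group of libraries with others, and the pairs without a shared library were MII with GV beside Btg4tm with Btg4wt, and Btg4wt with MII beside Btg4tm with GV.

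**Figure D1:**
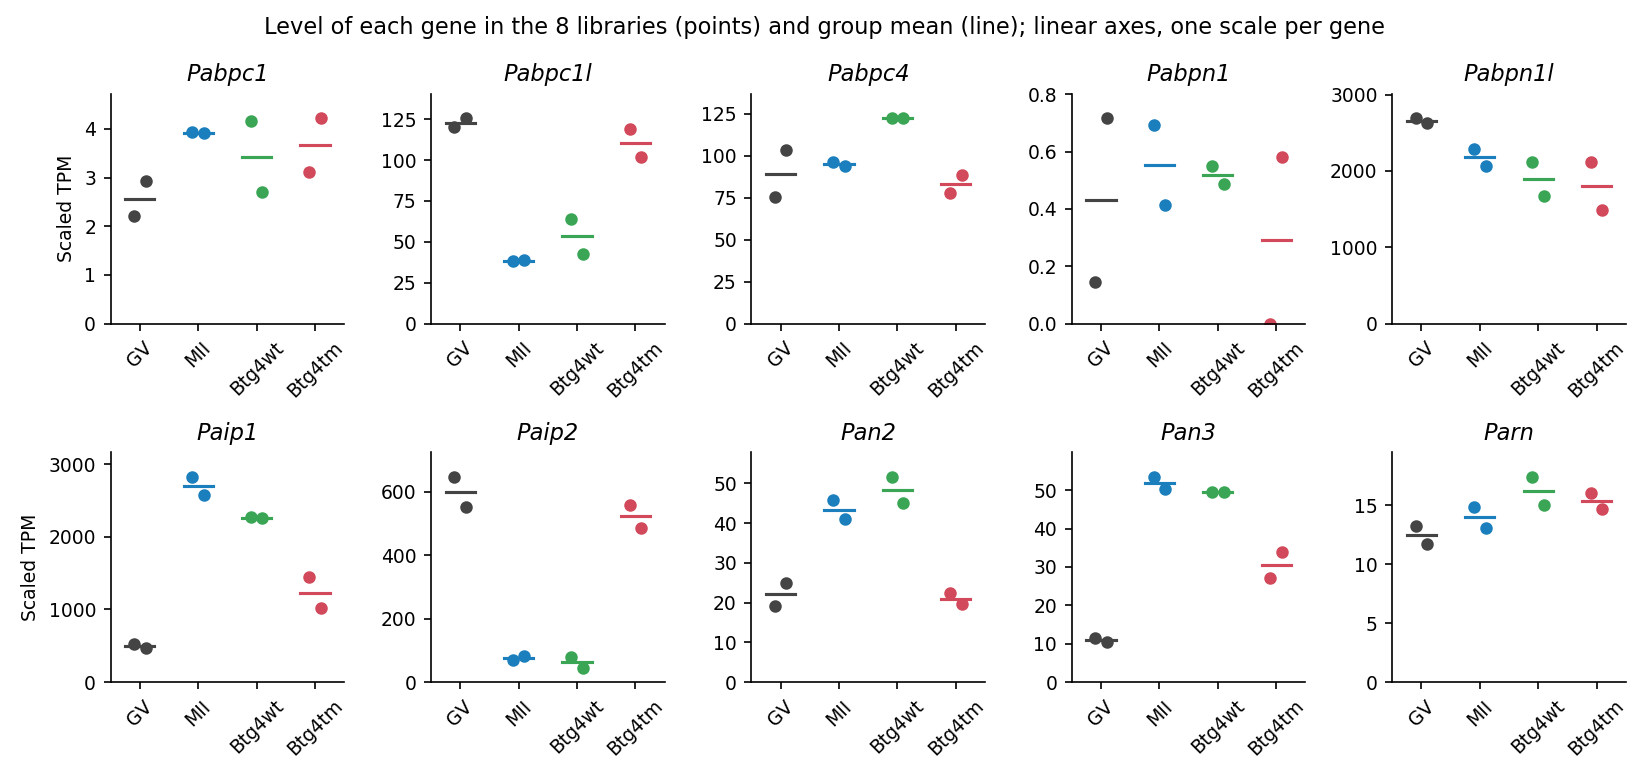
Scaled TPM of the 10 genes (y axis, linear, one scale per gene) in GV, MII, Btg4wt and Btg4tm oocytes (x axis). Points are the 2 libraries of a group and lines their mean. *Pabpc1l* and *Paip2* sit high in GV and Btg4tm libraries, while *Paip1*, *Pan2* and *Pan3* sit high in MII and Btg4wt libraries.

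*Pabpc1l*, the oocyte form, was the cytoplasmic poly(A)-binding protein gene that passed the calling threshold. It lies on chromosome 2 of GRCm38, from 164025450 to 164050538. Its scaled TPM were 120.3 and 126 in GV, 38.2 and 38.9 in MII, 63.9 and 42.7 in Btg4wt, and 119 and 102 in Btg4tm. The 4 groups did not overlap, in the order GV, Btg4tm, Btg4wt and MII. From GV to MII it fell from 123 ± 3.84 to 38.6 ± 0.476 (mean ± SD, n = 2), 3.13-fold, with a log2 fold change of -1.65 (SE 0.18, limma adjusted p = 8.7e-05). It was 2.09-fold higher in Btg4tm, with 111 ± 11.9, than in Btg4wt oocytes, with 53.3 ± 15.0, a log2 fold change of 1.06 (SE 0.18, limma adjusted p = 0.0015). That difference stayed positive but lost the call without Btg4wt replicate 2 (0.77) or Btg4tm replicate 1 (0.95), and under quantile normalization (0.84). Against GV, Btg4tm oocytes differed by a log2 fold change of -0.16 (95% confidence interval -0.57 to 0.25, limma adjusted p = 0.60). With mitochondrial scaling this was -0.79 and not called (limma adjusted p = 0.022), beside a median of -0.64 for all genes. Both called changes kept their direction when libraries were scaled to the mitochondrial genes, at -3.82 and 2.13.

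The somatic forms gave a different picture. *Pabpc4* was abundant, with 75.1 and 103 scaled TPM in GV, 96.3 and 93.9 in MII, 122.3 and 122.2 in Btg4wt, and 77.8 and 88.4 in Btg4tm libraries. GV overlapped with both MII and Btg4tm libraries, and the Btg4wt libraries stood above all others. From GV to MII its log2 fold change was 0.11 (95% confidence interval -0.24 to 0.46, limma adjusted p = 0.54), a sign that turned with TPM as deposited (-0.046), without GV replicate 1 (-0.12) and with mitochondrial scaling (-2.08). In Btg4tm against Btg4wt oocytes it was -0.55 (SE 0.15, limma adjusted p = 0.016), under the fold threshold and opposite in sign to *Pabpc1l*, but 0.52 with mitochondrial scaling. About 70.3% of the 50-base stretches of its longest transcript are shared with 12 other annotated genes, of which 1, *Gm10110*, was listed, at 0.338 to 1.17 TPM. Reads could therefore be lost or split between copies, and the level of *Pabpc4* is uncertain.

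*Pabpc1*, the common somatic form, was close to the lower limit of the measurement. Its scaled TPM were 2.22 and 2.92 in GV, 3.93 and 3.91 in MII, 4.15 and 2.70 in Btg4wt, and 3.11 and 4.22 in Btg4tm libraries. GV libraries lay below MII libraries, and each pair of neighbours in the order of the group means overlapped. Its log2 fold changes were 0.47 (95% confidence interval -0.09 to 1.03, limma adjusted p = 0.12) from GV to MII and 0.08 (-0.47 to 0.64, adjusted p = 0.80) from Btg4wt to Btg4tm. The first turned to -1.21 with mitochondrial scaling, and the second to -0.14 under quantile normalization. The transcript of *Pabpc1* shares 20.7% of its 50-base stretches with 3 other genes, none of them listed.

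Within a library, the balance of oocyte and somatic forms does not depend on the scaling between libraries. *Pabpc1l* made up 60.9 and 54.3% of the TPM of the 3 cytoplasmic forms in GV libraries, 27.6 and 28.5% in MII, 33.6 and 25.5% in Btg4wt, and 59.5 and 52.4% in Btg4tm. By these values it was the most abundant of the 3 in GV and Btg4tm libraries, and *Pabpc4* was in MII and Btg4wt libraries. Reads of *Pabpc4* could be lost to its copies, so these shares, and which form led in GV and Btg4tm libraries, are uncertain. *Pabpc1* held between 1.123 and 2.86%. The ratio of *Pabpc1l* to the sum of *Pabpc1* and *Pabpc4* was 1.36 in GV, 0.390 in MII, 0.415 in Btg4wt and 1.27 in Btg4tm oocytes (geometric means, n = 2). On the log2 scale the ratio differed by -1.80 from GV to MII, by 0.09 from MII to Btg4wt, by 1.62 from Btg4wt to Btg4tm, and by -0.09 from GV to Btg4tm, with SDs within groups of 0.04 to 0.40. An exact permutation test of the 4 groups gave p = 0.0762, where the smallest p it allows is 0.00952. It compares all ways of pairing the libraries. GV ratios lay near Btg4tm and MII ratios near Btg4wt, so pairings that mix such libraries fit about as well. This p therefore does not measure the gap from GV to MII or from Btg4wt to Btg4tm. With *Pabpc1* alone as the somatic form the ratio was 48.3 in GV, 9.84 in MII, 15.6 in Btg4wt and 30.4 in Btg4tm oocytes. The exact permutation p was then 0.0095, the smallest that the design allows. This variant rests on *Pabpc1*, which was close to the lower limit of the measurement and shares stretches with other genes.

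**Figure D2:**
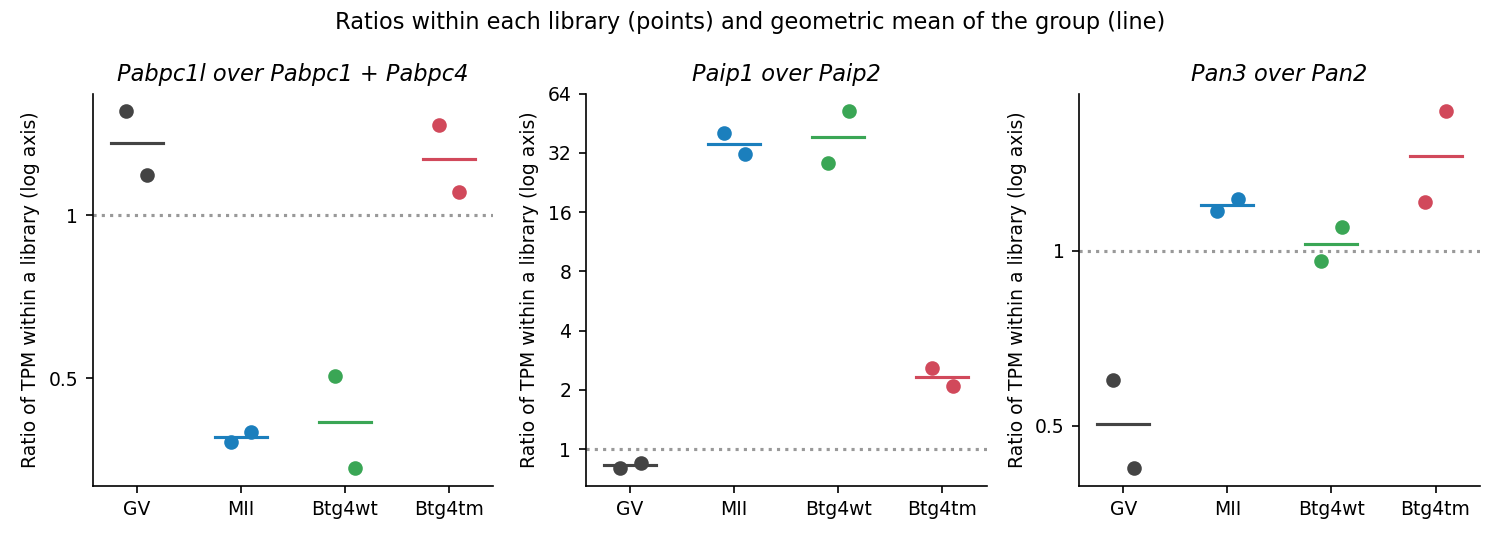
Ratio of TPM within each library (y axis, log scale, no unit) for *Pabpc1l* over *Pabpc1* plus *Pabpc4*, *Paip1* over *Paip2*, and *Pan3* over *Pan2* in the 4 groups (x axis). Points are libraries, lines geometric means, and the dotted line marks a ratio of 1. The first ratio is above 1 in the 4 GV and Btg4tm libraries and below 1 in the 4 MII and Btg4wt libraries.

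The listed values of the nuclear-type forms lay at opposite ends of the range. *Pabpn1l*, on chromosome 8 from 122619471 to 122622739, had 2693 and 2628 scaled TPM in GV, 2294 and 2072 in MII, 2115 and 1678 in Btg4wt, and 2118 and 1491 in Btg4tm libraries. It ranked between place 30 and 89 among all listed genes of a library. GV libraries were the highest, and the injected groups overlapped with each other and with MII. Its log2 fold change from GV to MII was -0.29 (95% confidence interval -0.69 to 0.12, limma adjusted p = 0.19), and from Btg4wt to Btg4tm it was -0.08 (-0.49 to 0.32, limma adjusted p = 0.72). The second sign turned without Btg4wt replicate 1 (0.072) or Btg4tm replicate 2 (0.17). With mitochondrial scaling it was 1.003 and passed the threshold, while the median of all genes was 0.88. From GV to Btg4tm its log2 fold change was -0.58 (SE 0.18, limma adjusted p = 0.07). Mitochondrial scaling made *Pabpn1l* a called gene also from GV to MII (-2.50, limma adjusted p = 2.1e-06) and from GV to Btg4tm (-1.22, adjusted p = 0.0058), where the medians of all genes were -1.74 and -0.64.

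The adaptor gene *Btg4*, whose injected RNA may add to the count, had 2650.01 and 2794 scaled TPM in GV, 5792 and 6002 in MII, 5178 and 5510.4 in Btg4wt, and 3725 and 4068 in Btg4tm libraries. Its log2 fold changes were 1.115 from GV to MII and -0.46 from Btg4wt to Btg4tm, and they turned to -1.10 and 0.63 with mitochondrial scaling. The ratio of *Pabpn1l* to *Btg4* within a library was 0.978 in GV, 0.370 in MII, 0.353 in Btg4wt and 0.456 in Btg4tm oocytes. This ratio was chosen after the values were seen and has no test. GV libraries, at 1.02 and 0.941, lay above the 6 others, at 0.304 to 0.569, and the 3 MII-stage groups overlapped.

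*Pabpn1* had between 0 and 0.717 scaled TPM, and it was listed at 0 in Btg4tm replicate 1. Of its exonic bases, 21.4% overlap the gene *Gm20521*. Its longest transcript shares 27.3% of its 50-base stretches with 2 other genes. Reads could therefore be lost, and the level of *Pabpn1* is uncertain. No ratio of *Pabpn1l* to *Pabpn1* was computed. Both oocyte forms exceeded the measured values of *Pabpc1* and *Pabpn1* in every library on the per-length TPM scale. *Pabpc1l* was below *Pabpc4* in MII and Btg4wt libraries. Stretches shared with other genes may lower the values of *Pabpc1*, *Pabpc4* and *Pabpn1*.

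The regulators *Paip1* and *Paip2* moved in opposite directions from GV to MII. *Paip1*, the activator, on chromosome 13 from 119428601 to 119458218, had 520.3 and 469 scaled TPM in GV, 2830.3 and 2584 in MII, 2275 and 2259.8 in Btg4wt, and 1446 and 1020.2 in Btg4tm libraries. All 4 groups were separate, with Btg4tm between GV and the other MII-stage groups. It rose from GV to MII, from 495 ± 36.1 to 2707 ± 174 (mean ± SD, n = 2), 5.46-fold, with a log2 fold change of 2.45 (SE 0.16, limma adjusted p = 6e-06), which was 0.23 and not called with mitochondrial scaling. From Btg4wt to Btg4tm the log2 fold change was -0.90 (SE 0.16, limma adjusted p = 0.0018), under the fold threshold. It was called without Btg4tm replicate 1 (-1.15) and turned to 0.19 with mitochondrial scaling. Btg4tm oocytes held 2.46-fold more than GV oocytes, a log2 fold change of 1.30 (SE 0.16, limma adjusted p = 0.0052), or 0.66 and not called with mitochondrial scaling.

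*Paip2*, the inhibitor, had 648 and 552 scaled TPM in GV, 69.9 and 82.2 in MII, 80.2 and 43.4 in Btg4wt, and 558 and 487 in Btg4tm libraries. The gene lies on chromosome 18 of GRCm38, from 35598617 to 35617187. GV and Btg4tm libraries overlapped and stood far above MII and Btg4wt libraries, which overlapped too. It fell from GV to MII, from 600.02 ± 67.5 to 76.0 ± 8.70, 7.80-fold, with a log2 fold change of -2.96 (SE 0.25, limma adjusted p = 2.3e-05). In Btg4tm oocytes, with 522 ± 50.2, it was 8.70-fold above Btg4wt oocytes, with 61.8 ± 26.0, a log2 fold change of 3.12 (SE 0.25, limma adjusted p = 2.9e-05). Leaving out 1 library at a time gave 2.68 to 3.55, and mitochondrial scaling kept both directions, at -5.16 and 4.197. Btg4tm differed from GV by -0.20 (95% confidence interval -0.77 to 0.38, limma adjusted p = 0.64). With mitochondrial scaling this was -0.83 and not called (limma adjusted p = 0.026), beside a median of -0.64 for all genes. This gene had the widest range of the 9 tested, 14.9-fold between its lowest and highest library.

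The ratio of *Paip1* to *Paip2* was 0.826 in GV, 35.7 in MII, 38.5 in Btg4wt and 2.33 in Btg4tm oocytes (geometric means, n = 2). By library it was 0.803 and 0.850 in GV, 40.5 and 31.4 in MII, 28.4 and 52.1 in Btg4wt, and 2.59 and 2.10 in Btg4tm. The Btg4tm libraries thus lay between GV and the other MII-stage groups, nearer to GV. The ratio was formed after the values were seen and has no test.

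**Figure D3:**
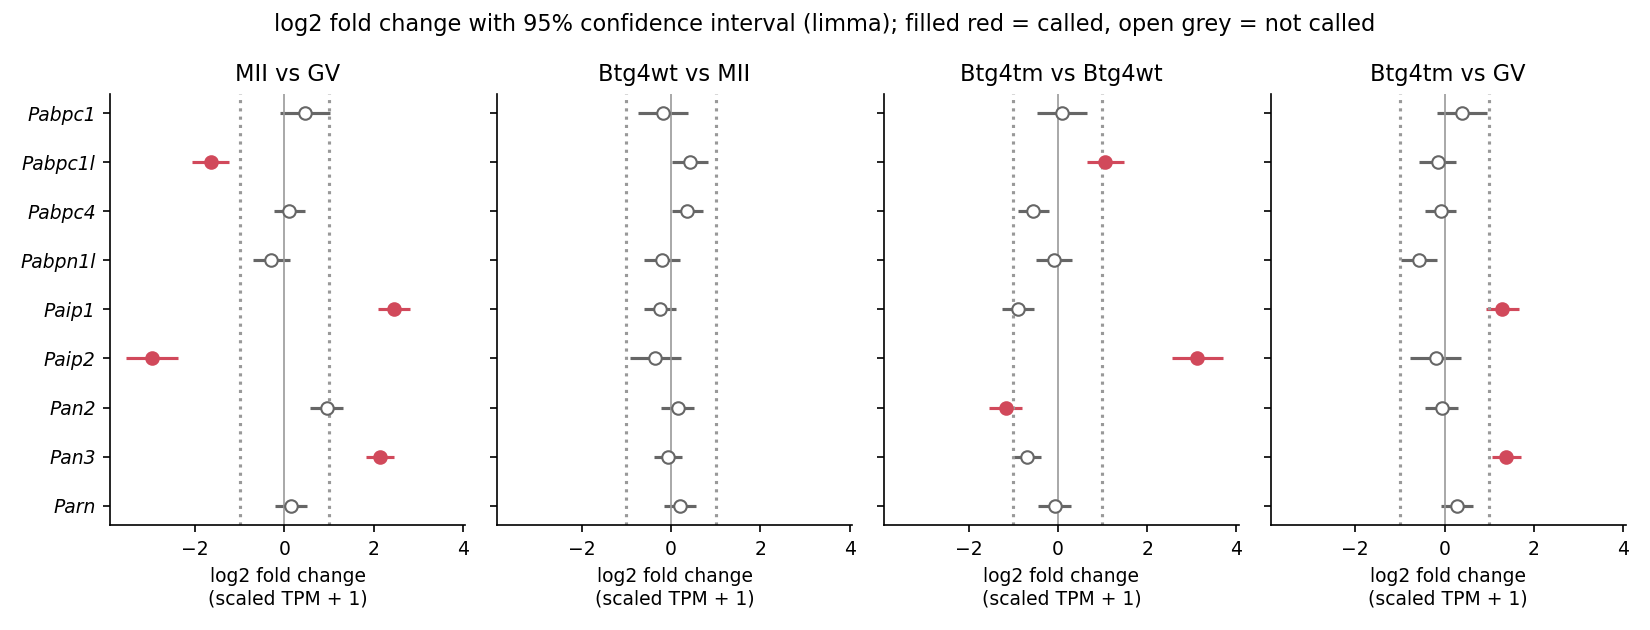
The log2 fold change of each of the 9 tested genes (x axis, log2 of scaled TPM + 1) in the 4 comparisons, with 95% confidence intervals from limma. Filled red points were called, dotted lines mark the fold threshold of 1. *Paip2* has the largest change in MII against GV (-2.96) and in Btg4tm against Btg4wt (3.12), with opposite signs.

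Both genes of the PAN2-PAN3 deadenylase had higher values in MII than in GV oocytes, and only *Pan3* passed the fold threshold. *Pan3*, the adaptor subunit, on chromosome 5 from 147430161 to 147548502, had 11.5 and 10.5 scaled TPM in GV, 53.6 and 50.4 in MII, 49.6 and 49.5 in Btg4wt, and 27.1 and 33.9 in Btg4tm libraries. The groups did not overlap, and Btg4tm was again between GV and the rest. From GV to MII it rose 4.41-fold, from 11.02 ± 0.691 to 52.0 ± 2.23 (mean ± SD, n = 2), with a log2 fold change of 2.14 (SE 0.14, limma adjusted p = 6.3e-06), or 0.02 with mitochondrial scaling. From Btg4wt to Btg4tm it was -0.69 (SE 0.14, limma adjusted p = 0.0038), under the fold threshold, and 0.37 with mitochondrial scaling. From GV to Btg4tm it was 2.61-fold higher, a log2 fold change of 1.38 (SE 0.14, limma adjusted p = 0.0041), or 0.80 and not called with mitochondrial scaling.

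*Pan2*, the catalytic subunit, on chromosome 10 from 128303335 to 128321358, had 19.2 and 24.9 scaled TPM in GV, 45.7 and 41.0 in MII, 51.7 and 44.96 in Btg4wt, and 22.3 and 19.5 in Btg4tm libraries. The Btg4tm libraries lay within the GV range, and MII and Btg4wt libraries overlapped above both. From GV to MII the log2 fold change was 0.95 (SE 0.16, limma adjusted p = 0.001), just under the fold threshold. It passed under quantile normalization (1.21), without GV replicate 2 (1.14) and without MII replicate 2 (1.04), and turned to -1.19 with mitochondrial scaling. In Btg4tm oocytes, with 20.9 ± 1.96, *Pan2* was 2.25-fold lower than in Btg4wt oocytes, with 48.3 ± 4.75, a log2 fold change of -1.17 (SE 0.16, limma adjusted p = 0.00049), or -0.11 and not called with mitochondrial scaling. Btg4tm and GV differed by -0.06 (limma adjusted p = 0.82). With mitochondrial scaling this was -0.68 and not called (limma adjusted p = 0.041), beside a median of -0.64 for all genes.

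The ratio of *Pan3* to *Pan2* within a library was 0.5997 and 0.423 in GV, 1.17 and 1.23 in MII, 0.960 and 1.10 in Btg4wt, and 1.22 and 1.74 in Btg4tm. Only the GV libraries lay below 0.9, while MII and Btg4tm libraries overlapped. In Btg4tm oocytes *Pan2* thus lay within the GV range while *Pan3* was above it. This ratio, too, was formed after the values were seen, and no test was made.

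*Parn* was the steadiest of the 9, with a 1.49-fold range over the 8 libraries. Its scaled TPM were 13.3 and 11.7 in GV, 14.9 and 13.0 in MII, 17.4 and 15.0 in Btg4wt, and 16.0 and 14.7 in Btg4tm libraries. Each pair of neighbours in the order of the means overlapped. Its log2 fold changes were 0.15 (95% confidence interval -0.21 to 0.51, limma adjusted p = 0.43) from GV to MII and -0.07 (-0.43 to 0.28, adjusted p = 0.72) from Btg4wt to Btg4tm. With mitochondrial scaling they were -1.91 and 0.95, close to the medians of all genes on that scale.

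Set beside the 3' ends, the genes with a CPE near the annotated end had unequal log2 fold changes from GV to MII. They were 2.14 for *Pan3*, 0.95 for *Pan2* and 0.11 for *Pabpc4* (limma adjusted p = 6.3e-06, 0.001 and 0.54). With mitochondrial scaling they were 0.02, -1.19 and -2.08. A link to the CPE was not tested. *Paip1* rose most of the 9 with no CPE in the stretch searched. *Pabpc1l*, *Pabpn1l* and *Parn* carry the same variant signal and no CPE, and their log2 fold changes were -1.65, -0.29 and 0.15.

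The profiles most like *Pabpc1l* over the 8 libraries, by the root mean square difference of gene-centred log2 values among the 6881 genes that averaged 10 scaled TPM or more, were *Lrrc42* (0.0725), *Cdipt* (0.0994) and *Amz2* (0.104). Of the genes studied that reached this mean, *Pabpn1l* was the nearest to *Pabpc1l*, at 0.691 and rank 2302, followed by *Parn* at 0.763 and rank 2668. Those most like *Pabpn1l* were *Steap4* (0.131), *Setdb2* (0.137) and *Eftud2* (0.139), and the nearest of the genes studied was *Parn*, ranked 1017.

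Other genes of tail biology were read from lists with fixed members. Of 18 partners of cytoplasmic poly(A)-binding proteins, 17 were tested. In MII against GV oocytes, 5 were called higher and 2 lower, with a median log2 fold change of 0.78, beside 12.5% and 24% of all genes and an overall median of -0.00. *Tnrc6c*, a scaffold of microRNA silencing (1.57, SE 0.30, limma adjusted p = 0.002), and *Larp4*, an RNA-binding protein that protects tails (1.41, SE 0.14, adjusted p = 4.3e-05), rose. *Tob1*, an antiproliferative adaptor of CCR4-NOT (-2.24, SE 0.23, limma adjusted p = 6.2e-05), and *Eif4b*, a cofactor of the eIF4A helicase (-1.39, SE 0.15, adjusted p = 7.2e-05), fell.

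From Btg4wt to Btg4tm the partners showed 1 higher and 6 lower, with a median of -0.88, beside 18.1% and 7.94% of all genes and an overall median of 0.01. *Tob1* was higher (1.53, SE 0.23, limma adjusted p = 0.00081). *Atxn2l*, a relative of ataxin-2 (-1.53, SE 0.18, limma adjusted p = 0.00022), and *Larp4b*, a relative of *Larp4* (-1.44, SE 0.14, adjusted p = 6.9e-05), were lower. With mitochondrial scaling the list medians turned to -1.33 from GV to MII and 0.13 from Btg4wt to Btg4tm, beside -1.74 and 0.88 for all genes. From GV to MII it called 0 partners higher and 12 lower, where 11403 of all 13968 genes were lower. From Btg4wt to Btg4tm it left 4 partners higher and 0 lower, with *Atxn2l* at -0.44 (limma adjusted p = 0.07) and *Larp4b* at -0.38 (adjusted p = 0.14). The rises of *Tnrc6c* and *Larp4* turned to -0.51 and -0.75 on that scale, whereas *Tob1* kept its directions at -4.12 and 2.47 and *Eif4b* its fall at -3.50.

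Of 10 genes listed as other deadenylases or their relatives, 5 were called higher and 2 lower from GV to MII, with a median of 0.77. From Btg4wt to Btg4tm 1 was higher and 1 lower, with a median of -0.47. Membership in the list does not establish deadenylase activity, also for *Noct* and *Angel2*, which were among the 5 higher genes. The shares of all genes were the same 12.5% and 24%, and 18.1% and 7.94%. *Cnot6l*, a catalytic subunit of CCR4-NOT, rose from GV to MII (1.53, SE 0.12, limma adjusted p = 1.4e-05), as did *Angel2* (1.47, SE 0.13, adjusted p = 3.2e-05). *Pnldc1*, a relative of *Parn* known for trimming piRNAs, fell (-2.87, SE 0.24, limma adjusted p = 2.1e-05). In Btg4tm against Btg4wt oocytes *Pnldc1* was higher (2.22, SE 0.24, limma adjusted p = 0.00013) and *Cnot6l* lower (-1.08, SE 0.12, adjusted p = 0.00015). The directions of *Pnldc1* held with mitochondrial scaling, at -4.69 and 3.13, while *Cnot6l* was at -0.64 and -0.010, *Angel2* at -0.73 in MII against GV, and the list medians at -1.37 and 0.57 on that scale. *Parn* and *Pnldc1*, related in sequence, thus differed in their values across the 4 groups.

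The nuclear poly(A) polymerase and cleavage factors held 15 tested genes of 16. Between GV and MII, 2 were higher and 3 lower, with a median of 0.05, and from Btg4wt to Btg4tm 1 was higher and 1 lower, with a median of -0.20, where 12.5% and 24% and then 18.1% and 7.94% of all genes were called. *Wdr33* (1.23, SE 0.10, limma adjusted p = 2.3e-05) and *Cpsf2* (1.21, SE 0.10, adjusted p = 1.9e-05), both of the factor that binds the polyadenylation signal, were higher in MII, and the endonuclease *Cpsf3* was lower (-1.39, SE 0.20, adjusted p = 0.00041). *Cpsf2* was lower in Btg4tm than in Btg4wt oocytes (-1.06, SE 0.10, limma adjusted p = 6.3e-05). With mitochondrial scaling 0 genes of this list were called higher and 13 lower from GV to MII, where 11403 of all 13968 genes were lower. From Btg4wt to Btg4tm 7 were higher and 0 lower, where 6089 of all genes were higher. The list medians were -1.86 and 0.75 on that scale, beside -1.74 and 0.88 for all genes. *Wdr33* and *Cpsf2* turned to -0.96 from GV to MII. Of 5 other poly(A)-binding protein genes 2 were tested and neither was called. Mitochondrial scaling called 1 of them lower from GV to MII and 1 higher from Btg4wt to Btg4tm. With scaling by the median of ratios, no gene of these lists was called between MII and Btg4wt oocytes or between GV and Btg4tm oocytes. Mitochondrial scaling called 2 partners, 3 genes of the deadenylase list and 4 nuclear factors lower in Btg4tm than in GV oocytes. On that scale 2972 of all 13968 genes were lower in this comparison.

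**Figure D4:**
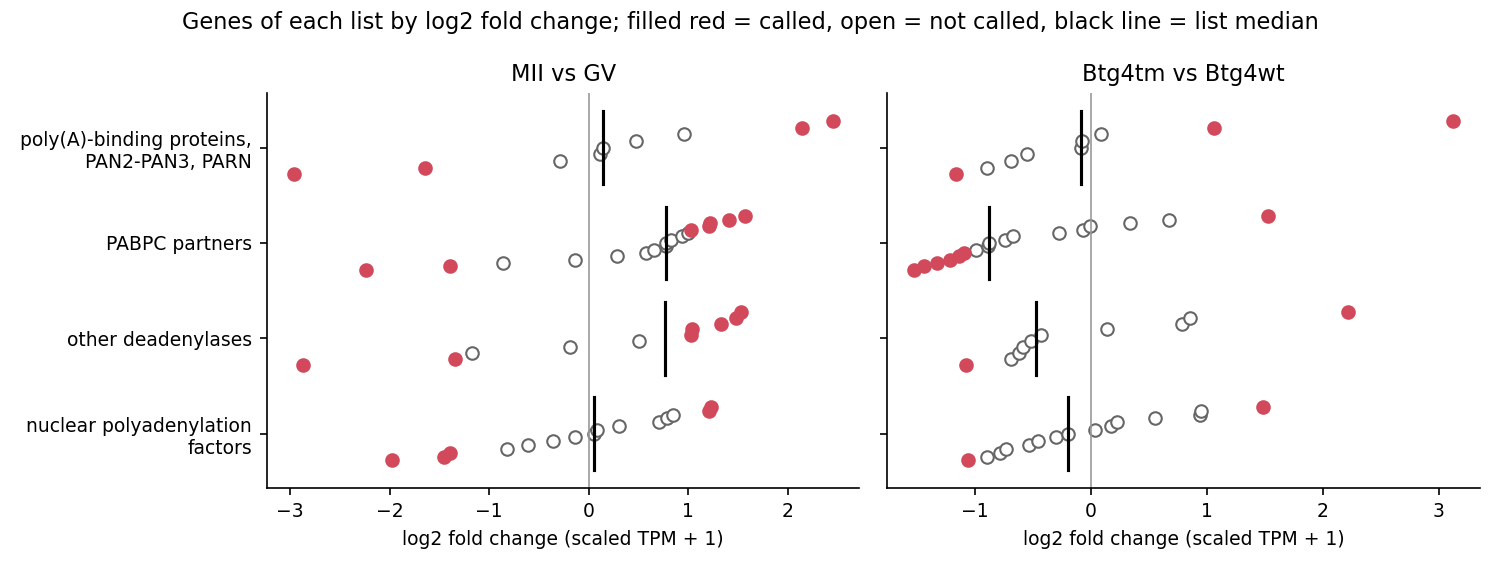
The log2 fold change (x axis, log2 of scaled TPM + 1) of the 9 tested genes and of the genes of 3 lists (rows) from GV to MII and from Btg4wt to Btg4tm. Each point is a gene, filled red where called, and black lines are list medians. Partners of the cytoplasmic poly(A)-binding proteins have a median of 0.78 in the first comparison and -0.88 in the second.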

How the data were processed

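Per the submitters' processing notes and the methods, the authors trimmed reads with Trim Galore 0.6.10, aligned them to GRCm38 with HISAT2 2.2.0 and counted exonic reads with featureCounts 2.0.6, without regard to strand and leaving out reads of low mapping quality. They deposited TPM per gene symbol, 1 table per library. Because TPM add up to a fixed total, a shift of abundant RNAs alters the values of every other gene, and neither depth nor counting error can be had from them. The study's own differential test used counts, which were not used here.

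Genes in both the control and the injection tables were kept (15962), scaled by the median of ratios and fitted with limma 3.58.1 in R 4.3.3 (eBayes with trend, 8 libraries, 1 coefficient per group) on log2(scaled TPM + 1), for the 13968 genes that reached 1 TPM in 2 or more libraries. Scripts used Python 3.11.15 and were tested on simulated data. The 10 genes and all lists were chosen with earlier results of these data known. Named from each list were up to 2 called genes per direction with the largest change and a mean of at least 10 scaled TPM, and for each oocyte form the 3 nearest profiles. Annotation came from GENCODE M21. Replicate libraries correlated at 0.982 to 0.987. Alternatives covered scaling, pseudocount, filters, libraries in the fit, a replicate block, the variance prior and leaving out each library. The values of the lists under other scalings were added after the data were seen.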

Additional observations from a re-analysis of the deposited data

How the results depend on the processing

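Mitochondrial scaling had the widest effect. From GV to MII it left 0 of the genes higher and 7 lower, from Btg4wt to Btg4tm 3 higher and 0 lower, and from GV to Btg4tm 0 higher and 1 lower. Of all 13968 genes it called 7 higher and 11403 lower, 6089 higher and 69 lower, and 38 higher and 2972 lower in these comparisons. It reversed the log2 fold changes of *Pabpc1* (-1.21), *Pabpc4* (-2.08), *Pan2* (-1.19) and *Parn* (-1.91) from GV to MII. From MII to Btg4wt it reversed *Pabpc1* (0.18), *Pabpn1l* (0.29), *Paip1* (0.24), *Paip2* (0.13) and *Pan3* (0.41). From Btg4wt to Btg4tm it reversed *Pabpc4* (0.52), *Pabpn1l* (1.003), *Paip1* (0.19), *Pan3* (0.37) and *Parn* (0.95), and from GV to Btg4tm *Pabpc1* (-0.11) and *Parn* (-0.32). Which scaling is nearer to RNA per oocyte was not tested. Quantile normalization gave 1 gene higher from Btg4wt to Btg4tm, 1 lower from GV to Btg4tm, and -0.14 for *Pabpc1* from Btg4wt to Btg4tm. TPM as deposited gave -0.046 for *Pabpc4* from GV to MII. Without a minimum fold, 4 genes were lower from Btg4wt to Btg4tm.

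Leaving out 1 library leaves a lone library that is assumed to vary like the other groups. The counts from Btg4wt to Btg4tm were then 1 to 2 genes higher and 1 to 2 lower. Some log2 fold changes crossed 0. In MII against GV, *Pabpc4* ranged from -0.12 (without GV replicate 1) to 0.34. In Btg4wt against MII, without Btg4wt replicate 2, *Pabpc1* was 0.070 (range -0.41 to 0.070) and *Paip2* 0.085 (range -0.78 to 0.085). In Btg4tm against Btg4wt, *Pabpc1* ranged from -0.16 (without Btg4wt replicate 2; -0.090 without Btg4tm replicate 2) to 0.32, *Pabpn1l* from -0.34 to 0.17 (without Btg4tm replicate 2; 0.072 without Btg4wt replicate 1) and *Parn* from -0.18 to 0.017 (without Btg4wt replicate 1). In Btg4tm against GV, *Pabpc4* ranged from -0.30 to 0.16 and *Pan2* from -0.23 to 0.13, both positive without GV replicate 2, and *Pan2* was 0.014 without Btg4tm replicate 2. None of these reversed values was a call under either setting, apart from *Pabpc1*, *Pabpc4*, *Pan2* and *Parn* from GV to MII and *Pabpn1l* from Btg4wt to Btg4tm with mitochondrial scaling.

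The largest difference between groups in the log2 ratio of *Pabpc1l* to the somatic forms was 1.80. It was 2.30 with *Pabpc1* alone, a gene close to the lower limit of the measurement (exact permutation p = 0.0095). When 1 library was left out it was 1.71 to 1.998. The replicate numbers only name libraries, with correlations of deviations between -0.05 and 0.06. The replicate block gave 1.80 for the ratio and changed no count of called genes among the 9. Its permutation p of 0.038 is not exact, because the permutations did not keep the block. The ratio of *Pabpn1l* to *Pabpn1* was not run, because *Pabpn1* was listed at 0 in 1 library. Of the other single-gene values under the alternatives, 452 kept direction and side of the threshold, 11 newly passed it and 8 no longer did.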
